A study of Mus musculus with 36 samples.

Results

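The genes described here are 44 cell cycle and mitosis genes, taken by name from the knee joint count table and kept if they had at least 10 counts summed over the 9 libraries of the set. All 44 passed that rule, of 55291 gene names in the table and 18808 with at least 10 counts. Of them, 19 act in or just before S phase, when DNA is copied, and 25 act in mitosis, when the copied chromosomes are separated. Total counts per gene ran from 252 (Ttk) to 15641 (Mki67) over the 9 libraries. The study asks what ACL injury does to the joint, the ACL being the anterior cruciate ligament of the knee, and how inhibition of protein kinase C (PKC) acts on that response. Knee tissue of mice was collected at 24 h and sequenced after depletion of ribosomal RNA. The 3 sham libraries came from mice without ACL injury. The 3 vehicle libraries came from mice with ACL injury that were given saline, and the 3 inhibitor libraries from mice with ACL injury that were given a PKC inhibitor. The labels give no strain, age, sex or compound name for these mice, and call the replicates biological.

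Proliferating cells pass through a fixed order of gene programmes. Late in G1 phase the transcription factor E2F1 and cyclin E switch on genes that load the MCM helicase onto replication origins, make nucleotides and copy DNA and chromatin. After S phase a second set is transcribed, which encodes cyclins A and B, mitotic kinases, spindle motors and the machinery that removes cyclins at mitotic exit. In mouse joints the marrow, the growth plate and the synovium hold dividing cells, and most chondrocytes of articular cartilage divide rarely.

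The promoters of the 2 classes are shown because S-phase and mitotic genes are known for different promoter elements, and the classes are set against each other here. RefSeq promoter windows on GRCm38.p6, from 250 bases before to 50 bases after a start site, were given for 36 of the 44 genes, as 38 windows, since Mcm7 and Uhrf1 have 2 each. For all windows, 3 motifs were searched on both strands. The E2F letters were forms of the site bound by E2F factors: first the form TTCGCGC, then the form TTGGCGC, and last the form TTCCCGC. The CHR letters were TTTGAA and TTCGAA, forms of the cell cycle genes homology region, an element bound by the DREAM and MuvB complexes that control mitotic genes. The third was the box CCAAT, which NF-Y binds. TTGGCGC can overlap the reverse form ATTGG of that box. E2F letters stood in 11 of 18 windows of S-phase genes (61.1%), in 3 of 20 of mitotic genes (15.0%) and in 8.07% of all 32851 windows. CHR letters stood in 2 of 18 windows of S-phase genes (11.1%), in 16 of 20 of mitotic genes (80.0%) and in 19.2% of all windows. The CCAAT box stood in 12 of 18 windows of S-phase genes, in 18 of 20 of mitotic genes and in 37.4% of all windows. A match of letters is a description of these windows and not a site of binding.

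**Figure D1:**
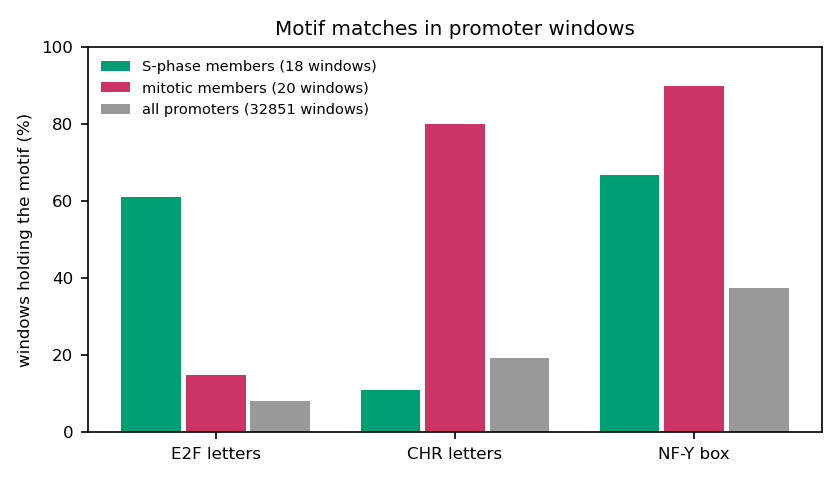
Percentage of promoter windows (y axis) that hold the E2F letters, the CHR letters or the NF-Y box CCAAT (x axis) for S-phase genes (green, 18 windows), mitotic genes (red, 20 windows) and all windows of the table (grey, 32851). The green bar is highest of its trio for E2F letters at 61.1%, and the red bar for CHR letters at 80.0%.

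Windows of 4 mitotic genes and 3 S-phase genes whose values are given later are printed from 250 bases before to 30 bases after the start site, 5′ to 3′, in lower case with every motif match in capitals. The mitotic genes carry the CHR letters and the CCAAT box.
Bub1b (chr2:118597961-118598240, plus strand): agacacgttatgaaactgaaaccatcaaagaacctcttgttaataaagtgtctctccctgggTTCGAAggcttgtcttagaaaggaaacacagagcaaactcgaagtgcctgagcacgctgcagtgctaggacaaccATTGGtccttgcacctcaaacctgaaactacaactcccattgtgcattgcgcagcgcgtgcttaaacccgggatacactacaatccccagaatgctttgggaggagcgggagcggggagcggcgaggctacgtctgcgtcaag
Ccnb2 (chr9:70421525-70421804, minus strand): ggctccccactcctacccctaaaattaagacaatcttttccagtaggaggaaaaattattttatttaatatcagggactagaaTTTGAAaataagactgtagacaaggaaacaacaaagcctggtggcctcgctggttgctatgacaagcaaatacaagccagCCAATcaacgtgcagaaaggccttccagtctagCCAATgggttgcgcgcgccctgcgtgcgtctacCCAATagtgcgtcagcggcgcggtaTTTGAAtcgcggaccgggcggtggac
Kif11 (chr19:37376132-37376411, plus strand): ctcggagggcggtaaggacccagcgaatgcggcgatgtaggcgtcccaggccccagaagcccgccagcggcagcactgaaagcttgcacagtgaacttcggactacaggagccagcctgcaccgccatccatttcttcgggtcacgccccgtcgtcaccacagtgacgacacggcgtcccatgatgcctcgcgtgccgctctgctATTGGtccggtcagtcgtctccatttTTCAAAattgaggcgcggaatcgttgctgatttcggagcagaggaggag
Kifc1 (chr17:33890604-33890883, minus strand): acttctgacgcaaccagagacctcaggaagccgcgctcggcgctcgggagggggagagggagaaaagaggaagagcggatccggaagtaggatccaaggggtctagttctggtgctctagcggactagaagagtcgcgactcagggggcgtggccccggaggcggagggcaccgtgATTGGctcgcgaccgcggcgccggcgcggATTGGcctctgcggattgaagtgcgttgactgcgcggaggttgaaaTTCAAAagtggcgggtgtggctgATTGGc
Cdt1 (chr8:122567765-122568044, plus strand): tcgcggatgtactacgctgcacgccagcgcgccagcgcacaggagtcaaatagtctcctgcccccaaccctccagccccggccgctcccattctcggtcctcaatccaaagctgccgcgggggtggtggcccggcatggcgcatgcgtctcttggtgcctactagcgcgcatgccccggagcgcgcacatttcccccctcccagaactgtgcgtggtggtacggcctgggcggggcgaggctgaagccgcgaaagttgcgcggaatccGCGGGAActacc
Uhrf1 (chr17:56303087-56303366, plus strand): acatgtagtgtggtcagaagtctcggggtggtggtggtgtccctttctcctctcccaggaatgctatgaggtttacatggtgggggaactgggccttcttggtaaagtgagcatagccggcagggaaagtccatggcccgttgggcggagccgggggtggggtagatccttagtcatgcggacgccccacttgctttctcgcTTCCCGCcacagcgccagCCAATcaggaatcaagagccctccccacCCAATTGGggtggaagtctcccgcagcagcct
Mcm7 (chr5:138171854-138172133, minus strand): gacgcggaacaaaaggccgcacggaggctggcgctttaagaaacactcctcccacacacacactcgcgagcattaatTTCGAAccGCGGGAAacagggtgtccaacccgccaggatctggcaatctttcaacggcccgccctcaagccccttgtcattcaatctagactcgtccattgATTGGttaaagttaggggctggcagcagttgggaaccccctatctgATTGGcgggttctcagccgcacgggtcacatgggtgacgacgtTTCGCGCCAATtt
In Kif11 the reverse form TTCAAA begins 19 bases before the start site, and in Ccnb2 TTTGAA stands once upstream and once just after the start. Bub1b holds TTCGAA in the printed part and TTTGAA past its end. In Mcm7 the capitals near the start site join TTCGCGC, the reverse form of TTGGCGC and CCAAT, which overlap. Mcm7 is 1 of the 2 S-phase genes with CHR letters, and Mcm2 is the other. Cdt1 and Uhrf1 hold E2F letters and no CHR letters, and a second E2F match of Cdt1 lies past the printed part.

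Each library held 124 to 202 M counts in all, of which 91.2% to 98.2% fell on the genes of 7SL RNA, and counts outside them ran from 3.28 to 11.9 M. The members together held 5235 (vehicle 1) to 18615 (inhibitor 2) counts. Inhibitor libraries 1 and 2 stand apart from the other 7, with 91.5% and 91.2% of counts on 7SL genes against 96.7% to 98.2%, and with scaling factors of 1.73 and 3.64 against 0.633 to 1.01. Calls and main values of the inhibitor group are therefore also given without these 2 libraries, in a fit that leaves 1 inhibitor library and assumes that it varies like the other groups. The labels call the samples knee joint tissue, and one protocol text calls those of this set cartilage. All 14 cartilage markers were counted in each group, with 9308 to 27509 in sham, 8940.0 to 11641 in vehicle and 2051 to 5531 in inhibitor libraries (summed normalised counts). Skeletal muscle, erythroid and granulocyte markers were counted as well, so genes of several tissues of the joint were counted. In such bulk samples fewer dividing cells and less RNA per dividing cell cannot be told apart.

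The mean levels of the classes are given first, library by library. The mean level of the 25 mitotic genes was 0.475, 0.175 and 0.0179 log2 CPM (counts scaled to library size) in sham libraries 1 to 3, −0.515, 0.0489 and −0.328 in vehicle libraries 1 to 3 and −1.44, −0.658 and −0.255 in inhibitor libraries 1 to 3. The mean of the 19 S-phase genes was 0.33, 0.0235 and −0.29 in sham, −0.405, 0.183 and −0.0715 in vehicle and −1.11, −0.253 and −0.229 in inhibitor libraries. Both means overlapped between sham and vehicle, in the mitotic mean through vehicle 2 alone and in the S-phase mean through vehicle 2 and 3. Inhibitor 1 was the lowest library in both. All 3 inhibitor libraries lay below the sham libraries in the mitotic mean but not in the S-phase mean. The difference between the means, S-phase minus mitotic, was −0.145, −0.151 and −0.308 in sham, 0.11, 0.134 and 0.257 in vehicle and 0.325, 0.404 and 0.0258 in inhibitor libraries. All 6 injured libraries lay above all 3 sham libraries, and inhibitor 3, not 1 or 2, was the injured library nearest to them. The scaling of a library cancels in this difference, apart from the prior count of 2. It is a description of a score over chosen genes, with no test.

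**Figure D2:**
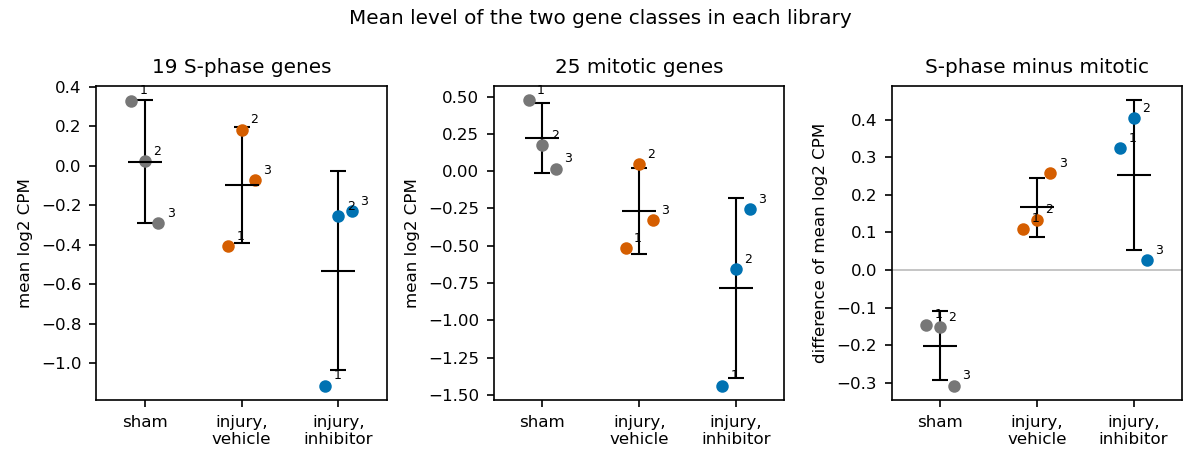
Mean log2 CPM of the 19 S-phase genes (left) and the 25 mitotic genes (middle), and the difference S-phase minus mitotic (right), on the y axes for each library (points, replicate number beside them) by group, with group mean and SD (bars, n = 3). In the right panel the 3 sham points lie from −0.308 to −0.145 and the 6 injured points from 0.0258 to 0.404.

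Within a group the members moved together across libraries. In inhibitor 1 none of 19 S-phase and none of 25 mitotic genes lay above their inhibitor group mean, while in inhibitor 3 16 and 25 did. In vehicle 2, 18 S-phase and 25 mitotic genes lay above the vehicle mean, and in sham 1, 18 and 24 lay above the sham mean. The 3 libraries of a group thus differed in the level of both classes, and that spread enters every test below.

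Markers of marrow cells, some of which divide, differed in how they ran beside the members. Early B cell markers, 12 genes of which 8 were tested, summed to 656 to 696 in sham, 476 to 552 in vehicle and 339 to 428 in inhibitor libraries (normalised counts), with no overlap between any of the groups. Ebf1 was the largest term in each library and had its highest value, 248, in inhibitor 1. Of the 8 tested, 5 were negative against vehicle and 3 positive, Ebf1 (log2 fold change 0.12), Dntt (0.49) and Blnk (0.038). Vpreb2 was at 0 in sham and inhibitor libraries. The 8 early granulocyte markers, such as Mpo and Elane, were all counted in each group and summed to 1257 to 2900.4 in sham, 1090.0 to 1413 in vehicle and 644 to 790.0 in inhibitor libraries, where inhibitor lay below both other groups. Mpo was the largest term, with 525 to 801 in vehicle and 296 to 369 in inhibitor libraries. Of the 8, 7 were negative against vehicle, with Ms4a3 near 0 (log2 fold change −0.064), and 1, Cebpe, was positive (0.62). The 12 erythroid precursor markers used, such as Klf1, were all counted in each group and summed to 5552 to 8422 in sham, 4912 to 9279.9 in vehicle and 2651 to 5321 in inhibitor libraries. Sham and vehicle overlapped in that sum. The lists did not follow the members library by library in a common way. Inhibitor 3, the inhibitor library with the highest mitotic mean, had the highest erythroid and the lowest early granulocyte sum of its group. Sham 3, the sham library with the lowest mitotic mean, had the highest early granulocyte sum of all. Inhibitor 1 had the highest stem and progenitor sum of its group. That rank came from Cd34, at 380 in inhibitor 1 against 75.6 and 72.7 in inhibitor 2 and 3. The 8 osteoblast markers summed to 64879 to 111284 in sham, 61215 to 71352 in vehicle and 19912 to 48898 in inhibitor libraries. Like the cartilage sums, these sums were lowest in inhibitor libraries 1 and 2. Col1a1 held most of each osteoblast sum, with 61922 to 107820 in sham, 59264 to 68285 in vehicle and 18357 to 45726 in inhibitor libraries. In every other osteoblast marker inhibitor 3 lay within or above the vehicle range. The 8 stem and progenitor markers summed to 469.8 to 649 in sham, 380.4 to 479 in vehicle and 252 to 589.5 in inhibitor libraries, which overlapped. The 10 late granulocyte markers summed to 15967 to 21223 in sham, 8261 to 11141 in vehicle and 8822 to 19077 in inhibitor libraries. Skeletal muscle markers, all 16 counted, ranged most within a group, with 22864 to 54062 in sham, 13662 to 22270.4 in vehicle and 6671 to 119760.0 in inhibitor libraries. The highest sum was that of inhibitor 1, the lowest library in both member means, and inhibitor 2 and 3 were at 6671 and 14667. Endothelial and adipocyte sums were also highest in inhibitor 1. They were at 2889 and 2645 there, against 453 to 1077 and 447 to 1454 in the other libraries. Macrophage sums (9 markers) were 1307 to 1501 in sham, 1245 to 1856 in vehicle and 1862 to 1957 in inhibitor libraries. Synovial fibroblast sums (8 markers), mostly Prg4, were 1061 to 2382, 4965 to 7023 and 2045 to 3679 in the same order. Growth plate sums (6 markers) were 2767 to 4852, 3890 to 4581 and 1379 to 4203. T and NK cell sums (8 markers, 1 tested) were 47.1 to 90.7, 49.8 to 57.3 and 23.4 to 42.1. The part of these cells in the results on the members was not tested.

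**Figure D3:**
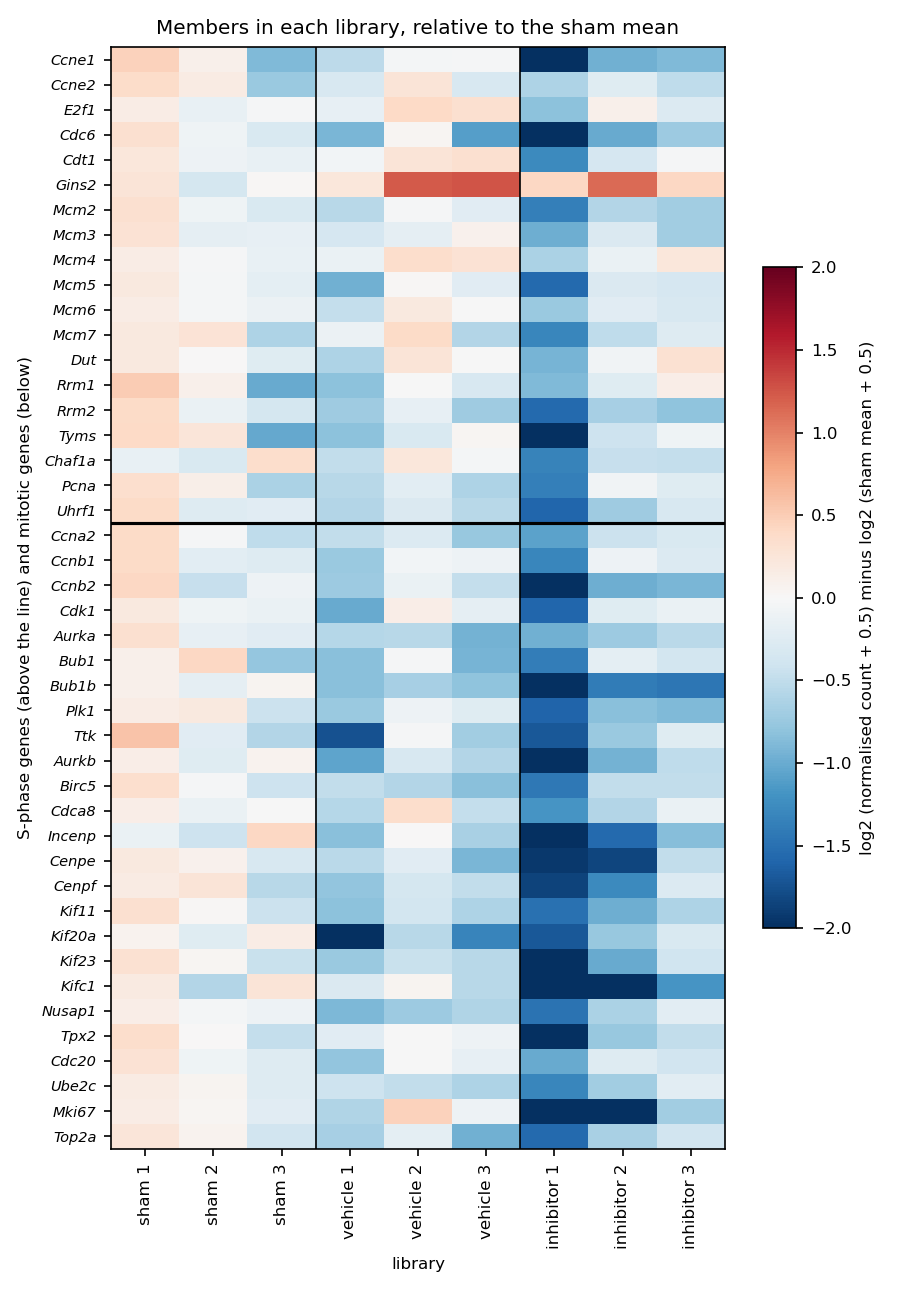
Each member (rows; S-phase genes above the line, mitotic genes below, ordered by role) in each library (columns), as log2 of its normalised count plus 0.5 relative to the sham mean plus 0.5; colours saturate at 2 in either direction. Inhibitor 1 is the lowest of the 9 libraries for most genes, and Gins2 stands out as higher in vehicle 2, vehicle 3 and inhibitor 2.

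At 24 h after injury all 25 mitotic genes had a negative log2 fold change against sham, with a median of −0.53, and 15 of 19 S-phase genes did, with a median of −0.14. The median over all 13823 genes tested was −0.018, and 51.9% of them were negative. None of the 44 passed the threshold of adjusted p 0.05, where 0.304% of all tested genes did, 0.0217% lower and 0.282% higher (edgeR's quasi-likelihood test with Benjamini-Hochberg adjustment). At an unadjusted p under 0.05 there were 6 mitotic genes, all lower, and 1 S-phase gene, Gins2, higher. Shares of all tested genes at that p were not counted, here or below, so these counts have no background beside them. DESeq2 called 0, a fit of the compared groups alone called 2 (Bub1b and Kif20a), and a fit with a muscle covariate called 6 (Birc5, Bub1b, Kif20a, Pcna, Rrm2 and Top2a). The vehicle libraries lay wholly below the sham libraries for 7 of 25 mitotic genes and for 1 of 19 S-phase genes, against 8.76% of all tested genes, and wholly above for none (8.2% of all). Leaving out sham 1 moved the S-phase median to 0.018, and leaving out each library in turn kept the mitotic median between −0.67 and −0.40.

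Among mitotic kinases, Bub1b, the checkpoint protein BubR1 that holds cells until chromosomes are attached, had normalised counts of 337, 278 and 326 in sham libraries 1 to 3, 176, 199 and 180.1 in vehicle libraries 1 to 3 and 62.3, 119 and 116 in inhibitor libraries 1 to 3. The 3 groups formed 3 steps without overlap. Against sham, vehicle was 1.70-fold lower (185 ± 11.9 against 314 ± 31.5, SD, n = 3 each; log2 fold change −0.76, SE 0.24, adjusted p = 0.281 by edgeR). Without inhibitor 1 in the shared fit Bub1b passed, with adjusted p = 0.0381 by edgeR. Aurka, the kinase of spindle poles, was at 151, 108 and 104 (sham), 81.4, 82.02 and 62.7 (vehicle) and 61.5, 72.8 and 83.1 (inhibitor). The 3 vehicle libraries lay below the 3 sham libraries (log2 fold change −0.69, SE 0.26, adjusted p = 0.401 by edgeR), and the inhibitor libraries lay at the vehicle level. The kinases Plk1, Ttk and Bub1 overlapped between sham and vehicle.

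Kif20a, a kinesin of cytokinesis, had the largest difference of a member between vehicle and sham. Its normalised counts were 158, 127 and 168 (sham), 34.9, 102 and 60.02 (vehicle) and 46.5, 89.2 and 122 (inhibitor). Vehicle 1 was the lowest library and the sham libraries were the 3 highest (65.7 ± 34.03 against 151 ± 21.2; log2 fold change −1.18, SE 0.39, adjusted p = 0.326 by edgeR). Nusap1, which binds spindle microtubules near chromosomes, was at 157, 139 and 134 (sham), 76.4, 86.8 and 94.1 (vehicle) and 51.0, 92.3 and 123 (inhibitor). All vehicle libraries and all inhibitor libraries lay below the sham libraries (log2 fold change −0.74, SE 0.29, adjusted p = 0.437 against sham for vehicle, by edgeR). The other 6 spindle and kinetochore genes, Kif11, Kif23, Kifc1, Tpx2, Cenpe and Cenpf, overlapped between sham and vehicle. Of the chromosomal passenger genes, which guide the Aurora B kinase, Birc5 and Aurkb did not overlap between sham and vehicle, and Incenp and Cdca8 did.

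The ubiquitin enzyme Ube2c, which works with the anaphase-promoting complex at mitotic exit, was at 293, 274 and 221 (sham), 198, 187 and 171 (vehicle) and 106, 162 and 226 (inhibitor). Vehicle lay below sham without overlap (log2 fold change −0.51, SE 0.25, adjusted p = 0.621 by edgeR). Its partner Cdc20 overlapped, as did the 4 cyclin and kinase genes Ccna2, Ccnb1, Ccnb2 and Cdk1, whose log2 fold changes ran from −0.50 to −0.27. Mki67, whose protein coats mitotic chromosomes and is the usual histological marker of proliferation, was at 3045, 2815 and 2348 (sham), 1799.5, 3778 and 2545 (vehicle) and 461, 619 and 1686 (inhibitor). Vehicle 2 was the highest and vehicle 1 the lowest of the sham and vehicle libraries, and Mki67 was near 0 (log2 fold change −0.015, SE 0.46, adjusted p = 0.996 by edgeR) where the other 24 mitotic genes were more negative. Leaving out each library in turn gave Mki67 −0.31 to 0.21.

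Gins2, a subunit of the GINS complex that activates the replicative helicase, was at 22.1, 14.4 and 18.9 (sham), 21.6, 43.98 and 45.01 (vehicle) and 24.8, 40.9 and 24.7 (inhibitor). It was the S-phase gene with the largest difference, higher in vehicle 2 and 3 and at the sham level in vehicle 1 (log2 fold change 1.002, SE 0.44, adjusted p = 0.542 by edgeR), from 280 counts over 9 libraries. Rrm2, the regulated subunit of ribonucleotide reductase that makes deoxynucleotides, was at 853, 594 and 513 (sham), 400.4, 585 and 397 (vehicle) and 223, 412 and 375 (inhibitor). Sham and vehicle overlapped, and all inhibitor libraries lay below sham (log2 fold change −0.50, SE 0.26, adjusted p = 0.653 for vehicle against sham, by edgeR). Uhrf1, which carries DNA methylation through replication, was at 519, 332 and 338 (sham), 264, 323 and 269 (vehicle) and 132, 242 and 317 (inhibitor) and was the S-phase gene whose vehicle libraries all lay below sham (log2 fold change −0.47, SE 0.28, adjusted p = 0.709 by edgeR). Cdc6, which loads the MCM helicase, was at 274, 206 and 177 (sham), 116, 225 and 102 (vehicle) and 54.8, 108 and 132 (inhibitor), with vehicle 2 inside the sham range. The 6 MCM genes had log2 fold changes from −0.33 (Mcm5) to 0.19 (Mcm4). The helicase subunit Mcm7 was at 434, 460.2 and 247 (sham), 352, 497 and 252 (vehicle) and 153, 268 and 319 (inhibitor), with vehicle 2 the highest library and vehicle 3 near sham 3. Pcna, the sliding clamp of DNA polymerases, was at 636, 545 and 322 (sham), 341, 431 and 326 (vehicle) and 194, 478 and 426 (inhibitor), and the 3 groups overlapped, with inhibitor 1 the lowest library.

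**Figure D4:**
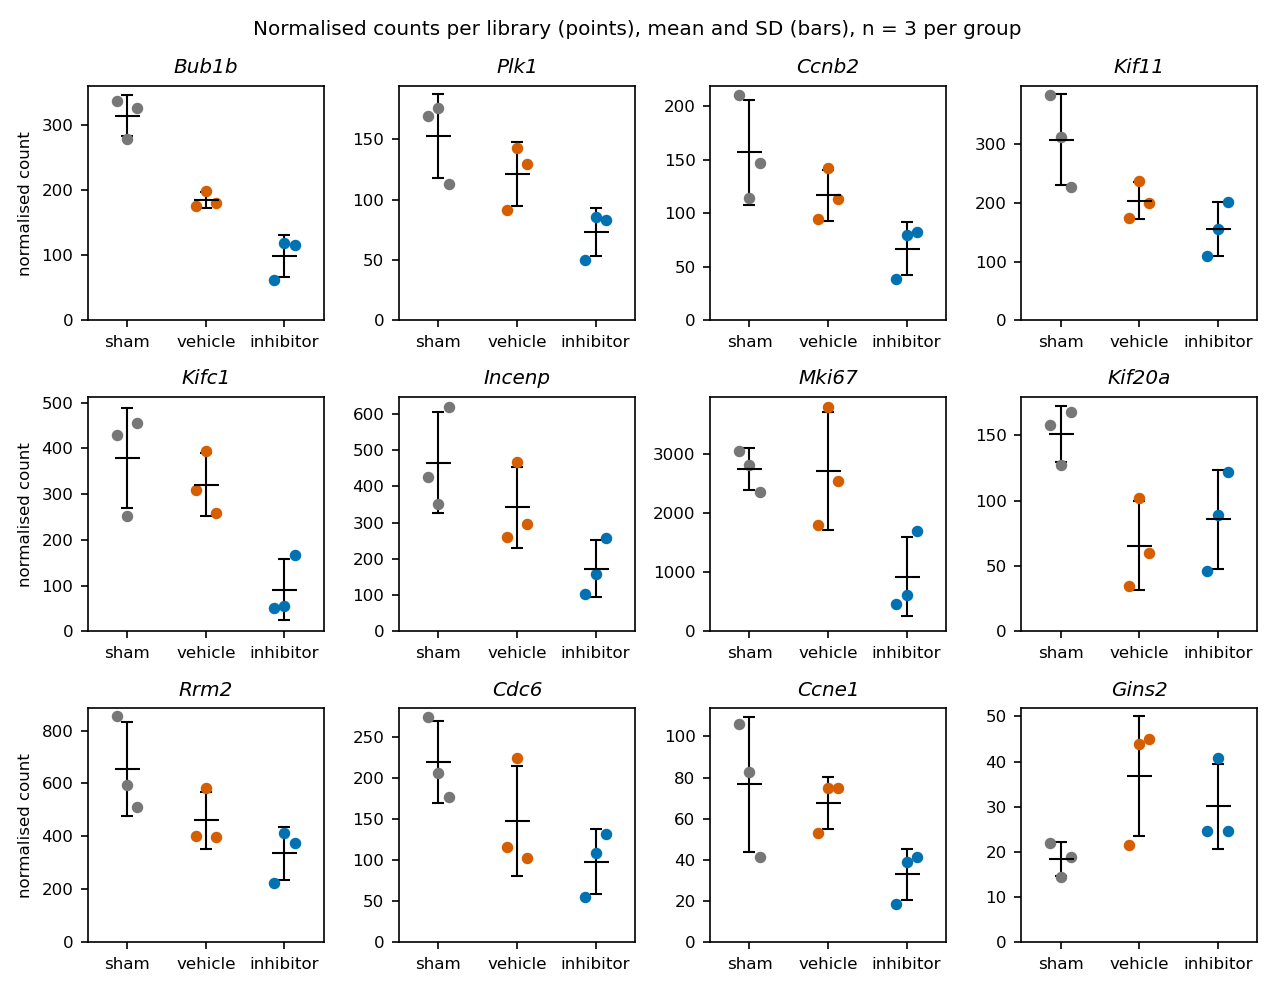
Normalised counts (y axis, from 0) of 12 members in each library (points) by group (x axis), with group mean and SD (bars, n = 3). Bub1b descends in 3 steps without overlap, Kif20a is lower in vehicle than in sham, Kifc1 and Mki67 are lower in inhibitor libraries, and Gins2 has its lowest mean in sham.

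With the PKC inhibitor, 23 of 25 mitotic genes and 18 of 19 S-phase genes had a negative log2 fold change against vehicle. The medians were −0.40 for mitotic and −0.35 for S-phase genes, against 0.042 over all genes tested, of which 46.2% were negative. None of the 44 passed the threshold, where 0.731% of all tested genes did, 0.702% lower and 0.0289% higher (edgeR). At an unadjusted p under 0.05 there were 7 mitotic and 4 S-phase genes, all lower, with no share of all tested genes counted. DESeq2 called 2 (Kifc1 and Mki67), a fit with a muscle covariate called 2 (Bub1b and Tpx2), and a fit of the compared groups alone called 0. The inhibitor libraries lay wholly below the vehicle libraries for 7 of 25 mitotic and 2 of 19 S-phase genes, against 10.4% of all tested genes, and wholly above for none (8.44% of all). The mitotic median depended on inhibitor libraries 1 and 2. Without inhibitor 1 the mitotic median was −0.11, and without both it was 0.11, while the S-phase median was −0.20 without both. Without inhibitor 3, Cenpe, Incenp, Kifc1 and Mki67 passed the threshold as lower (lowest adjusted p = 0.000995 by edgeR).

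Kifc1, a kinesin that bundles spindle microtubules, was at 430.2, 253 and 454 (sham), 309, 395 and 259 (vehicle) and 51.0, 56.1 and 167 (inhibitor). All inhibitor libraries lay below all others, with inhibitor 3 between the rest of its group and vehicle (log2 fold change −1.86, SE 0.45, adjusted p = 0.115 by edgeR). Its near-identical relative Kifc5b held 1153 counts against 1853 for Kifc1, and reads that fit both were counted for both, so the level of Kifc1 is uncertain. Mki67, at the counts given earlier, showed the same order, with 922 ± 666 against 2707 ± 999 (log2 fold change −1.56, SE 0.47, adjusted p = 0.191 by edgeR). Incenp, the scaffold of the chromosomal passenger complex, was at 426, 351 and 620.4 (sham), 261, 468 and 297 (vehicle) and 103, 159 and 257 (inhibitor). Inhibitor 3 lay just below vehicle 1 (log2 fold change −1.001, SE 0.34, adjusted p = 0.218 by edgeR). Bub1b was 1.87-fold lower than in vehicle, with all 3 inhibitor libraries below the vehicle range (log2 fold change −0.90, SE 0.24, adjusted p = 0.0989 by edgeR), and that order held in inhibitor 3 as well. Without inhibitor 1 and 2 the log2 fold changes against vehicle were −0.94 for Kifc1, −0.68 for Mki67, −0.41 for Incenp and −0.68 for Bub1b. Top2a, the topoisomerase that untangles sister chromosomes, overlapped between the groups (log2 fold change −0.21, adjusted p = 0.795 by edgeR).

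Not every mitotic gene lay lower with the inhibitor. The log2 fold change was 0.35 (adjusted p = 0.73) for Kif20a and 0.035 (adjusted p = 0.973) for Nusap1, both by edgeR. Aurka, Bub1, Ccna2 and Birc5 lay between −0.11 and −0.039. For vehicle against sham these 6 genes had log2 fold changes from −1.18 (Kif20a) to −0.50 (Ccna2). The vehicle libraries enter both comparisons, so the values are given side by side without a correlation.

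Ccne1, cyclin E1, which drives entry into S phase, was the S-phase gene with the largest difference from vehicle. Its normalised counts were 106, 82.6 and 41.5 (sham), 53.2, 74.9 and 75.02 (vehicle) and 18.8, 38.95 and 41.5 (inhibitor). The inhibitor libraries all lay below vehicle, but sham 3 was as low as inhibitor 3 (log2 fold change −1.04, SE 0.38, adjusted p = 0.232 by edgeR). Mcm2 was at 377, 283 and 245 (sham), 204, 296 and 258 (vehicle) and 117, 202 and 187 (inhibitor) and was the other S-phase gene without overlap between inhibitor and vehicle (log2 fold change −0.59, SE 0.25, adjusted p = 0.31 by edgeR). The licensing factor Cdt1 was at 115, 91.8 and 88.6 (sham), 94.7, 118 and 123 (vehicle) and 40.5, 77.9 and 97.4 (inhibitor), with inhibitor 3 inside the vehicle range. Chaf1a, a subunit of the chaperone that puts histones on new DNA, was at 241, 216 and 341 (sham), 189, 311 and 258 (vehicle) and 105, 194 and 191 (inhibitor), and inhibitor 2 and 3 came just above the lowest vehicle library. Without inhibitor 1 and 2 the log2 fold changes were −0.71 for Ccne1 and −0.44 for Mcm2. The 4 nucleotide genes Rrm2, Tyms, Dut and Rrm1 ran from −0.45 (Rrm2) to 0.057 (Rrm1) in log2 fold change, and in each the inhibitor and vehicle libraries overlapped.

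The widest difference lay between inhibitor and sham knees, which differ in both injury and treatment. There 6 of 25 mitotic genes passed the threshold, all lower, and 0 of 19 S-phase genes did, where 3.95% of all tested genes were called, 2.68% lower and 1.27% higher (edgeR). All 25 mitotic genes and 18 of 19 S-phase genes were negative, with medians of −0.83 and −0.62 against 0.034 over all genes, of which 47.6% were negative. At an unadjusted p under 0.05 there were 19 mitotic and 7 S-phase genes, with no share of all tested genes counted. The contrast of 6 with 0 did not hold in every fit. A muscle covariate gave 18 mitotic and 11 S-phase genes, a fit of the compared groups alone gave 1 (Bub1b), and DESeq2 gave 10, with the S-phase genes Cdc6 and Rrm2 among them. Shares of all genes called in the alternative fits are not given here. A changed count of members is therefore not set apart from a changed count over all genes. The difference between the classes was not tested. The inhibitor libraries lay wholly below sham for 16 mitotic and 8 S-phase genes, against 11.6% of all tested genes, and Gins2 lay wholly above, against 11.2%.

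Bub1b fell 3.17-fold (log2 fold change −1.66, SE 0.24, adjusted p = 0.00321 by edgeR; the gene lies at mouse chromosome 2 from 118598211 to 118641591 on mm10). It was called in all 17 alternative settings, with adjusted p from 9.56e-07 to 0.0222 and log2 fold changes from −1.89 to −1.41; without inhibitor 1 and 2 its adjusted p was 0.0141. Kifc1 fell 4.27-fold (log2 fold change −2.09, SE 0.46, adjusted p = 0.0378; at mouse chromosome 17 from 33875659 to 33890661) and Incenp 2.71-fold (log2 fold change −1.44, SE 0.34, adjusted p = 0.039; at mouse chromosome 19 from 9872296 to 9899551), both by edgeR. Kifc1 missed the threshold with a muscle covariate (adjusted p = 0.0509 by edgeR), and without inhibitor 1 and 2 its log2 fold change was −1.16 (adjusted p = 0.0988 by edgeR). The mitotic cyclin Ccnb2 was at 210.5, 114 and 147 (sham), 94.7, 143 and 113 (vehicle) and 38.3, 79.9 and 83.1 (inhibitor) and fell 2.35-fold (log2 fold change −1.24, SE 0.31, adjusted p = 0.0382 by edgeR; at mouse chromosome 9 from 70407692 to 70421547). Plk1, the kinase that matures spindle poles, was at 169.8, 176 and 113 (sham), 91.4, 143 and 129.6 (vehicle) and 50.3, 85.7 and 83.1 (inhibitor) and fell 2.102-fold (log2 fold change −1.07, SE 0.27, adjusted p = 0.0387 by edgeR; at mouse chromosome 7 from 122159439 to 122169873). Kif11, the kinesin that pushes spindle poles apart, was at 384, 312 and 228 (sham), 174, 238 and 201 (vehicle) and 109.5, 157 and 201 (inhibitor) and fell 1.99-fold (log2 fold change −0.99, SE 0.25, adjusted p = 0.0383 by edgeR; at mouse chromosome 19 from 37376403 to 37421859). In each of the 6 genes the highest inhibitor library was below the lowest sham library. Without inhibitor 1 and 2 the log2 fold changes were lower in size and did not pass for Ccnb2 (−0.91, adjusted p = 0.287), Plk1 (−0.88, adjusted p = 0.293), Incenp (−0.84, adjusted p = 0.293) and Kif11 (−0.61, adjusted p = 0.413), by edgeR.

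The count of 6 changed when single libraries were left out. It was 1 without sham 1, 3 without sham 2, 2 without sham 3, 1 without vehicle 1, 2 without vehicle 2, 1 without vehicle 3, 4 without inhibitor 1, 1 without inhibitor 2, 13 without inhibitor 3 and 1 without inhibitor 1 and 2 together. With 1 member left it was Bub1b each time. Vehicle libraries enter this comparison only through the shared fit. Without vehicle 1, 2 or 3 the log2 fold change of Kif11 stayed at −0.996, −0.989 and −0.996, against −0.995 with all libraries. Its adjusted p was then 0.0595, 0.0592 and 0.0706 by edgeR. Aurkb (−1.10, adjusted p = 0.121), Mki67 (−1.57, adjusted p = 0.107), Cenpe (−1.29, adjusted p = 0.072), Rrm2 (−0.96, adjusted p = 0.0555) and Cdc6 (−1.17, adjusted p = 0.0895) were among the members with large log2 fold changes that did not pass edgeR's threshold. Of the 6 genes that passed, a promoter window was given for 5 (Bub1b, Ccnb2, Kif11, Kifc1 and Plk1), and each of the 5 holds CHR letters, as 16 of 20 mitotic windows do.

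**Figure D5:**
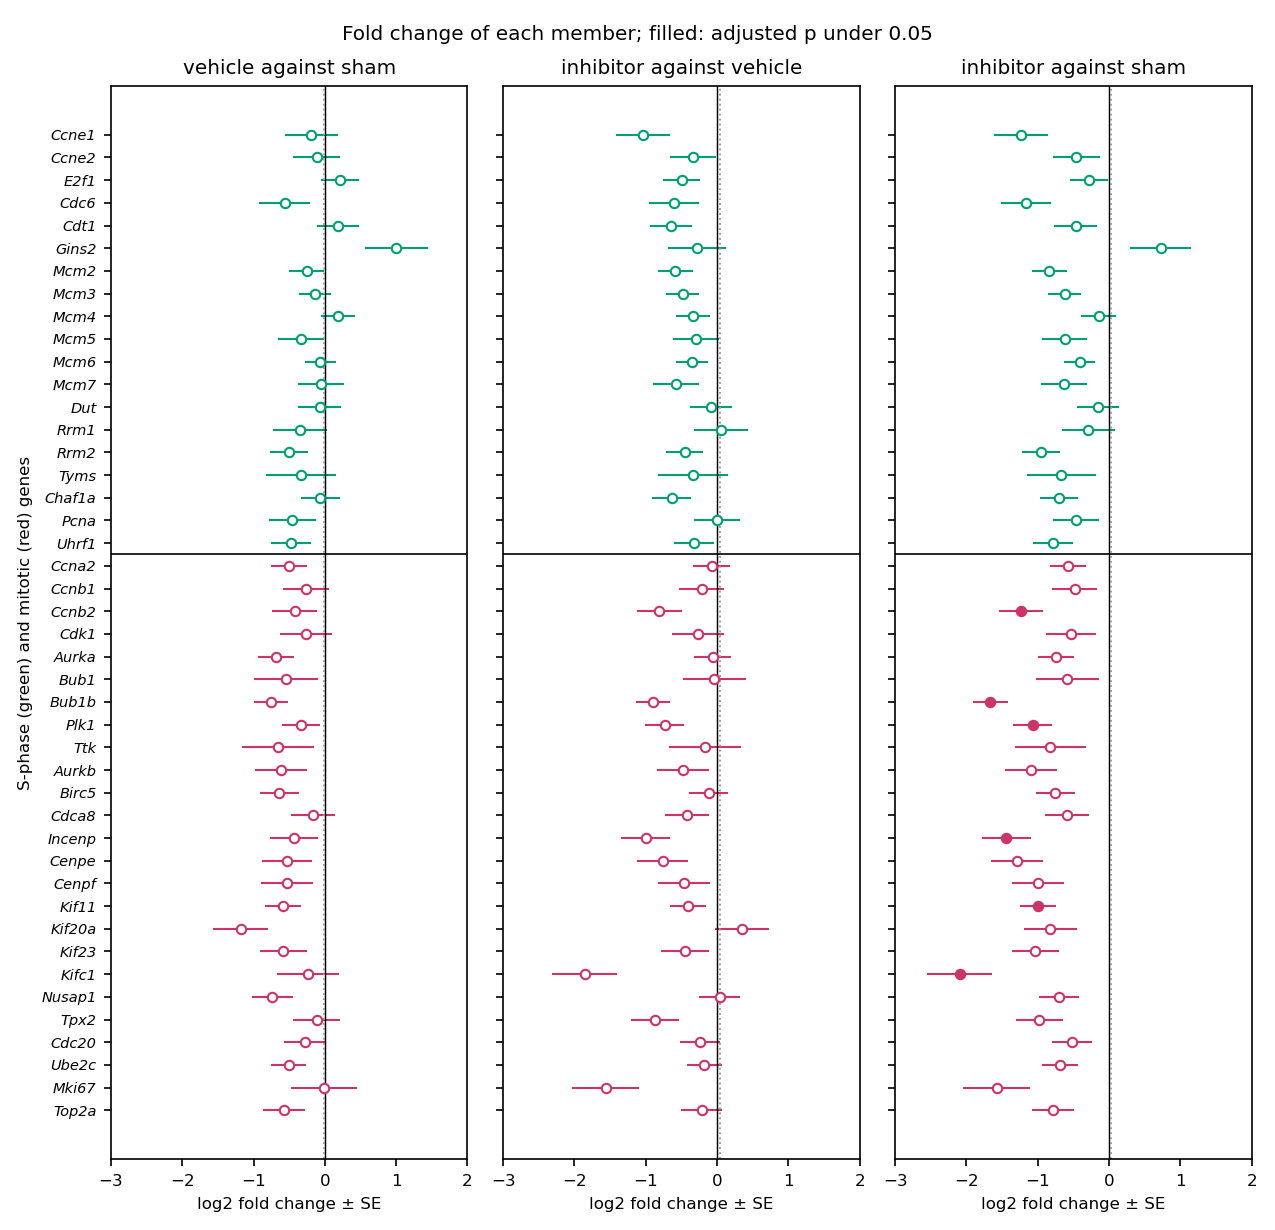
Log2 fold change and SE (x axes) of each member (rows; S-phase genes green, mitotic genes red) for vehicle against sham, inhibitor against vehicle and inhibitor against sham; filled points passed adjusted p 0.05 and the dotted line is the median of all genes tested. Filled points appear in the right panel only, for Ccnb2, Bub1b, Plk1, Incenp, Kif11 and Kifc1.

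Per kilobase of exon, the mean normalised count over the 9 libraries was 211 for Mki67, 175 for Rrm2 and 171 for Pcna, followed by 78.5 for Ube2c and 77.3 for Kifc1. The lowest were Ttk at 5.98, Gins2 at 6.95 and Bub1 at 7.60. In inhibitor libraries Mki67 was at 91.7 per kilobase, below Pcna at 152 and Rrm2 at 122, while in sham and vehicle libraries Mki67 was the highest of the 44.

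Other genes of the same pathways, from lists that hold no member, were counted in the same way. None of 52 other replication genes and none of 69 other mitotic genes passed after injury (edgeR), with medians of −0.17 and −0.34. At an unadjusted p under 0.05 there were 2 and 10, with no share of all tested genes counted. Against vehicle, 1 of 52 and 2 of 69 passed, all lower, where 0.702% of all tested genes passed as lower. The DNA ligase Lig1 fell with the inhibitor (log2 fold change −1.01, SE 0.21, adjusted p = 0.0417 by edgeR), and so did Espl1, the separase that cuts cohesin (log2 fold change −1.26, SE 0.26, adjusted p = 0.0417 by edgeR). Troap, a spindle protein, fell as well, from 74.8, 90.3 and 61.4 in vehicle to 11.3, 10.9 and 25.96 in inhibitor libraries (log2 fold change −2.32, SE 0.38, adjusted p = 0.0211 by edgeR). Against sham, 5 of 52 replication genes and 15 of 69 mitotic genes passed as lower and none as higher, where 2.68% of all tested genes passed as lower. The 5 were Lig1, Pold1, Clspn, Timeless and Slbp, and the mitotic genes included Dlgap5 (−1.41, adjusted p = 0.0158 by edgeR), Kif14 (−1.29, adjusted p = 0.0192), Nek2 (−1.11, adjusted p = 0.0297) and Sgo1 (−1.59, adjusted p = 0.0296). The medians were −0.41 and −0.87, against 0.034 over all genes tested. Without inhibitor 1 and 2, none of these replication genes and 1 mitotic gene, Ncapd3 (−1.60, adjusted p = 0.0362 by edgeR), passed against sham, with medians of −0.22 and −0.48 against −0.043 over all genes. Against vehicle none passed without them, with Lig1 at −0.95, adjusted p = 0.272, Espl1 at −0.99, adjusted p = 0.396, and Troap at −1.54, adjusted p = 0.286, by edgeR.

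Among regulators, Foxm1, a transcription factor of mitotic genes, was at 167, 168 and 162 (sham), 81.4, 111 and 109 (vehicle) and 46.5, 102 and 99.9 (inhibitor). Sham libraries were tightly grouped above all injured ones (log2 fold change −0.72, SE 0.28, adjusted p = 0.443 for vehicle against sham, by edgeR). Mybl2, a partner of the MuvB complex, fell in inhibitor against sham knees (log2 fold change −1.22, SE 0.32, adjusted p = 0.0498 by edgeR), as did the phosphatase Cdc25b (log2 fold change −0.89, SE 0.22, adjusted p = 0.0348 by edgeR). Of 18 tested activators of the cycle these were the 2 that passed in that comparison, and 0 passed in the others (edgeR). Of all tested genes, 2.68% passed as lower and 1.27% as higher in inhibitor against sham knees. Of 22 tested genes that restrain the cycle, E2f4 (−1.04, adjusted p = 0.0252) and E2f7 (−1.42, adjusted p = 0.0199) passed as lower and Cdkn1a as higher in inhibitor against sham knees, by edgeR. Cdkn1a encodes p21, which blocks cyclin-dependent kinases, and was at 119.8, 142 and 90.5 (sham), 241, 245 and 210.1 (vehicle) and 219, 301 and 286 (inhibitor). All 6 injured libraries lay above all 3 sham libraries (log2 fold change 0.98, SE 0.22, adjusted p = 0.0997 for vehicle and log2 fold change 1.19, SE 0.22, adjusted p = 0.0095 for inhibitor, by edgeR), in the opposite direction to the mitotic genes. Without inhibitor 1 and 2 Cdkn1a still passed (1.28, adjusted p = 0.0158 by edgeR), while Mybl2 (−0.54, adjusted p = 0.492), Cdc25b (−0.75, adjusted p = 0.275), E2f4 (−0.68, adjusted p = 0.341) and E2f7 (−1.29, adjusted p = 0.205) did not.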

How the data were processed

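Counts of the first set of the series were analysed. The deposited table holds raw counts per gene name, made by the authors with featureCounts 2.0.1 in its paired, reverse-stranded mode over GENCODE M25 exons, where a read that maps to several places or genes adds a full count to each, per the file headers. HISAT2 and mm10 are named in the submitters' processing notes, and the version of HISAT2 is not given in the sources used here. The other 2 tables, with 27 columns whose codes appear in no label, were not used.

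The 9 libraries were filtered with filterByExpr (13823 genes kept, all 44 members among them), scaled by TMM and fitted together, 1 mean per group, with edgeR 4.0.16 (robust quasi-likelihood F test, two-sided, Benjamini-Hochberg adjustment over all genes tested) in R 4.3.3. Normalised counts are counts over effective library size (total times TMM factor), brought back to the mean of those sizes. SEs were derived from the log2 fold change and F. Mean log2 CPM uses a prior count of 2. Alternatives were DESeq2 1.42.0, RLE scaling, no filter beyond 10 counts, 2 groups per fit, a replicate block, removal of 7SL and small RNA genes by the start of their names, a muscle covariate and left-out libraries. That removal also took out every gene whose name begins with Gm, Gmnn among them, and others such as Snorc. The test was checked on simulated counts. For erythroid precursors, 1 listed marker is not reported here and was left out of the sum. The members and lists were chosen with earlier results of these data known. Values per library were given for members past the threshold, those with the lowest p or largest fold change of each class in the first 2 comparisons, the 3 most abundant per length, and the first of a role not yet named. Of pathway genes, those past the threshold or with the 2 lowest p per list were eligible, and others are named as chosen after their values were seen.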

Additional observations from a re-analysis of the deposited data

How the results depend on the processing

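The labels do not say that a replicate number marks a shared animal or batch, and deviations of same-numbered libraries correlated at −0.241 to 0.0694 over 9 pairs. With a replicate block the members called by edgeR were 4 in place of 6 for inhibitor against sham, with Ccnb2 and Kif11 no longer called. In the other 2 comparisons the count was 0 as before. The main fit used no pairing, and whether the numbers mark a shared animal or batch cannot be told from these values. For vehicle against sham the count was 2 in a fit of the compared groups alone, 6 with the muscle covariate, 2 without both inhibitor libraries 1 and 2, and 0 to 1 when each library was left out. For inhibitor against vehicle it was 2 with DESeq2, 2 with the muscle covariate and 0 to 4 when each library was left out. For inhibitor against sham it was 10 with DESeq2, 1 with only the compared groups, 29 (18 mitotic and 11 S-phase genes) with the muscle covariate, 1 without both inhibitor libraries 1 and 2, and 1 to 13 when each library was left out. The cause was not tested, and the number of all genes called in each fit is not given beside these counts. Leaving out each library, the S-phase median for vehicle against sham ran from −0.37 to 0.018. Without both inhibitor libraries 1 and 2, which leaves 1 library assumed to vary like the other groups, the mitotic median for inhibitor against vehicle was 0.11, Uhrf1 was at 0.15, Pcna at 0.22, Aurka at 0.14 and Ube2c at 0.29 in log2 fold change. Pcna in the same comparison was at 0.0023 with DESeq2, 0.054 with the muscle covariate and 0.039 without a filter, and Cdt1 for vehicle against sham was at −0.13 with that covariate. Leave-one-out ranges that crossed 0 were −0.47 to 0.11 (Ccne1), −0.22 to 0.15 (Chaf1a), −0.32 to 0.16 (Mcm7) and −0.31 to 0.21 (Mki67) for vehicle against sham, and −0.26 to 0.31 (Pcna), −0.18 to 0.044 (Aurka), −0.25 to 0.31 (Nusap1) and −0.46 to 0.061 (Ube2c) for inhibitor against vehicle. Genes with under 300 counts over the 9 libraries, such as Ttk and Gins2, are limited by depth.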

Other observations

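Cyclin D1 and its kinase act in G1, before the genes described above. Ccnd1, chosen after its values were seen, was at 301, 262 and 136 (sham), 258, 277 and 271 (vehicle) and 410.3, 355 and 471 (inhibitor) normalised counts. All 3 inhibitor libraries lay above all sham and vehicle libraries (log2 fold change 0.61, adjusted p = 0.281 against vehicle and 0.81, adjusted p = 0.0802, against sham, by edgeR), without passing the threshold. Its partner Cdk4 was at 245, 198 and 166 (sham), 289, 266 and 265 (vehicle) and 219, 333 and 283 (inhibitor), with all vehicle libraries above sham (log2 fold change 0.42, SE 0.22, adjusted p = 0.639 by edgeR).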
